A study of Mus musculus with 10 samples.

Results

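A set of 39 genes for DNA repair and its checkpoint was followed in 5 cell lines of mouse small cell lung cancer (SCLC), each with a MYCN transgene switched on or off. The members were the rows of the count files whose gene symbol equalled one of the listed symbols, and all 39 were found among the 24391 genes listed. Of these, 38 passed the filter on low counts and were tested among 12835 genes. The list holds 9 genes of homologous recombination, 5 of the Fanconi anaemia pathway, 5 checkpoint kinases, 7 genes of nucleotide excision repair, 2 of mismatch repair, 3 of strand break and base excision repair, 4 of end joining, 3 of translesion synthesis, and Mgmt, which reverses alkylation directly.

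Cells answer DNA damage with several repair pathways that differ in the lesion they remove. Homologous recombination and the Fanconi anaemia pathway act mainly in S and G2 phase, and homologous recombination uses a sister chromatid as template. End joining and excision repair are available throughout the cell cycle. The kinases Atm and Atr sense breaks and stalled forks and pass the signal to Chek2 and Chek1. SCLC is a fast-dividing neuroendocrine lung tumour that usually lacks the tumour suppressors RB and p53, and it is treated with drugs that damage DNA.

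The lines G4314, G9351, G9488, G9529 and G9577 carry the genotype "Rb;p53,TRE-MYCN, LSL-RTTA" per the labels, so the altered Rb and p53 genes, the tetracycline-responsive MYCN transgene and the doxycycline-dependent activator are shared by all libraries. From each line 1 library came from cells kept in doxycycline (MYCN on) and 1 from cells deprived of it for 4 days (MYCN off). The Cre driver, the species of the transgene and the number of tumours behind each line are not given in the sources used here. The labels do not say whether cultures were repeated, so p-values measure the spread among these lines. Effects of MYCN and of doxycycline itself cannot be told apart, because every culture carried the transgene. The series asks which genes MYCN regulates in these cells.

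Polyadenylated RNA was counted per gene, with totals of 9586465 to 11960074 counts per library. Levels are given as CPM, counts scaled to a common library total with TMM factors. Mycn, the targeted gene, stood at 737 ± 212 CPM on and 118 ± 66.5 CPM off (SD, n = 5 lines), higher in 5 of 5 lines (fitted log2 change 2.86, SE 0.38). Reads of the transgene and of the mouse gene could not be separated. The labels call each line SCLC-derived, and SCLC is typically neuroendocrine, but G9577 stood apart: 12 neuroendocrine markers summed to 224 CPM on and 185 CPM off. In the other lines they summed to 3615 to 4432 CPM on and 5661 to 7566 CPM off. In G9577, 12 fibroblast and mesenchymal markers summed to 4249 CPM on and 19362 CPM off, against 2.95 to 22.4 CPM elsewhere. The summed level of 9 immune markers ran from 2.17 to 69.5 CPM, and the highest value was in G9577 with MYCN off. Some values that move without G9577 are therefore also given without it. In what follows, 5 values in a row are in the order G4314, G9351, G9488, G9529 and G9577.

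With MYCN on, 16 of the 38 tested genes rose and 0 fell in edgeR's quasi-likelihood test with the line as a block and Benjamini-Hochberg adjustment over all genes tested. Among all genes the same rule called 15.3% higher and 15.6% lower, against 42.1% of these genes called higher. At an unadjusted p under 0.05 there were 19 higher and 0 lower, and the share of all genes past it is not given here. DESeq2 and limma-voom also called 0 of these genes lower. Of all 12835 genes they called 2997 and 2378 lower, and 17.8% and 16.3% higher. The median log2 change was 0.68 over these genes and -0.08 over all genes. The rises were unevenly spread over pathways: 6 of 9 homologous recombination genes, 4 of 5 checkpoint kinases, 2 of 5 Fanconi genes, 2 of 4 end-joining genes, Msh6, Parp1, and none of the 7 nucleotide excision repair or 3 translesion genes. Markers of cell type moved beside these rises: of 12 neuroendocrine markers 0 rose and 7 fell (median log2 change -0.75). Of the tested markers of other types, 2 of 4 fibroblast and mesenchymal, 2 of 3 endothelial and 2 of 3 lung epithelial ones fell. Among these, Dcn, Tek and Foxj1 had mean levels of at most 7.04 CPM in either condition. The part of the markers in the result was not tested. In bulk RNA, fewer cells of a type and less RNA per cell cannot be told apart. The count was 13 without G9577, where the median log2 change was 0.52. It fell to 4 without G4314 or without G9351, in both cases Atm, Atr, Xrcc5 and Xrcc6. It was 0 without the line block, where 16 were past an unadjusted p of 0.05. Of all genes, these fits called 17.4% higher without G9577, 6.64% without G4314, 6.32% without G9351 and 1.68% without the block.

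**Figure D1:**
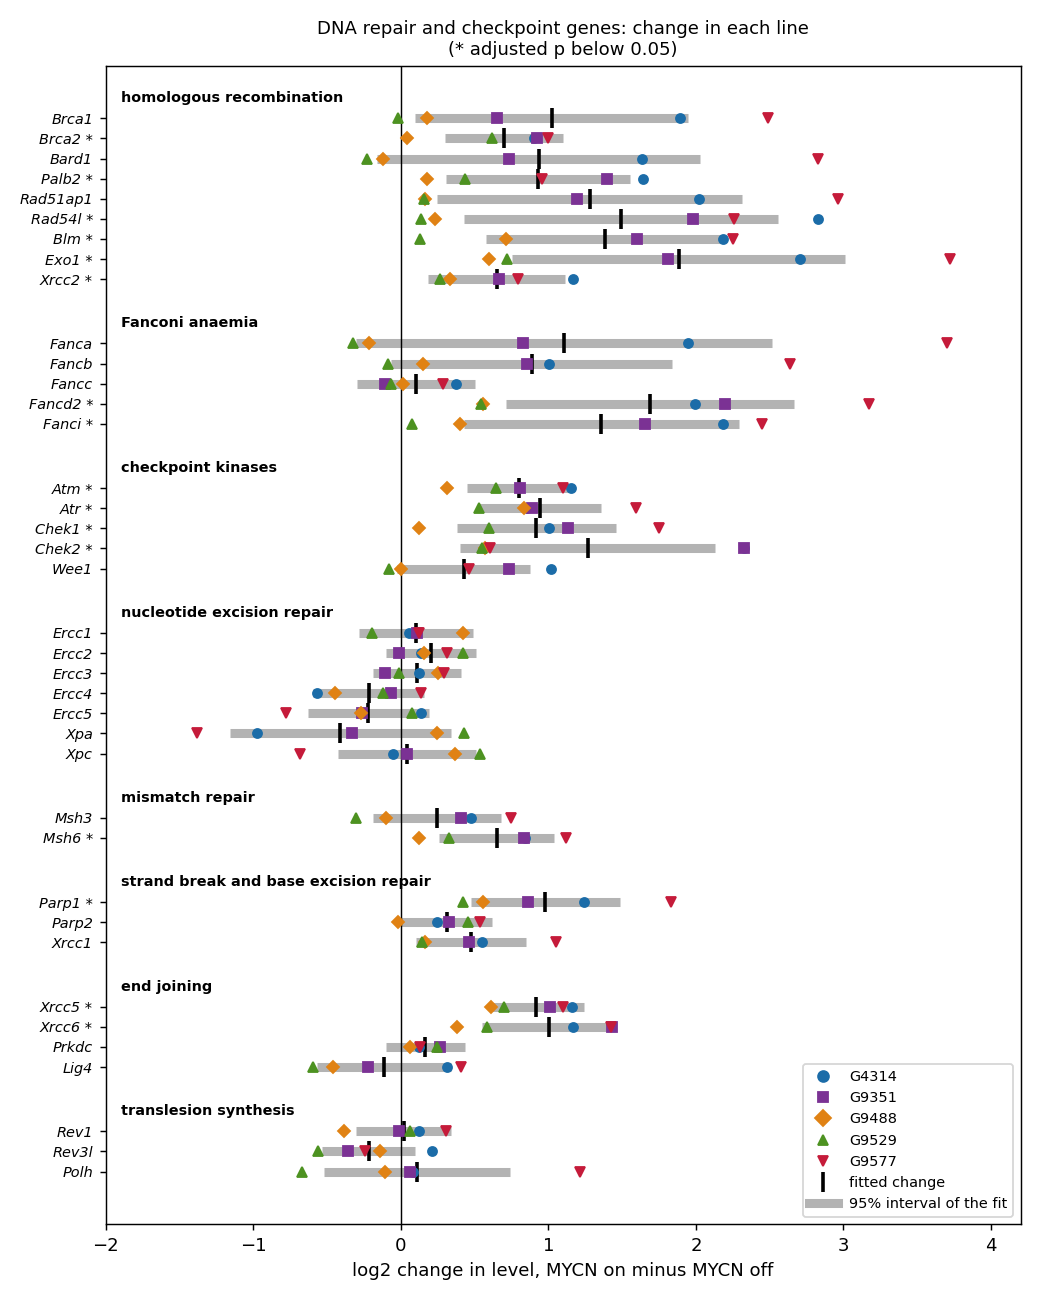
Log2 change in level with MYCN on against off (horizontal axis) for the 38 tested genes, grouped by pathway. Coloured symbols are the 5 lines, black ticks the fitted change, grey bars its 95% interval, and asterisks mark genes with an adjusted p below 0.05. Most recombination and Fanconi genes lie farther to the right in G4314, G9351 and G9577 than in G9488 and G9529. Fancc lies between -0.11 and 0.38 in each line, and the fitted changes of the nucleotide excision repair genes between -0.41 and 0.21.

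The size of the change differed by line. The count of genes at least 2-fold higher with MYCN on was 19 in G4314, 11 in G9351, 0 in G9488, 0 in G9529 and 20 in G9577. The shares of all tested genes past the same fold were 11.8% in G4314, 10.1% in G9351, 5.33% in G9488, 6.91% in G9529 and 14.3% in G9577. Of the 38 genes, 19 were higher in all 5 lines, against 20.9% of all genes. With 1 library per line and condition, a difference in response between lines could not be tested.

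Promoter sequence was looked at because many members rose when a transcription factor was switched on. RefSeq promoter windows of GRCm38.p6, from 250 bases before to 50 bases after each start, matched 31 of the 39 genes by symbol. The E-box CACGTG, the letters that MYC and its partner MAX bind, was in the windows of 4 of the 31 genes (Parp1, Parp2, Rev1 and Xrcc5), against 8.09% of 27025 genes with a window. It was present in 2 of 13 genes that rose and in 2 of 17 that did not pass the test. The E2F letters TTTGGCGC, TTTCCCGC and TTTCGCGC, searched on both strands, were in 6 of 31 (Bard1, Brca2, Chek2, Msh3, Msh6 and Xrcc6), against 2.12% of genes, with 4 of 13 genes that rose and 2 of 17 that did not. The 2 matches of Msh3 overlap each other. The cell cycle homology letters TTTGAA were in 2 of 31 (Bard1 and Ercc5), against 20.2% of genes. A match is a description of letters and not a site shown to be bound.

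Stretches of 100 bases around the match are shown for 2 genes that rose and carry the E-box, for 1 that carries it and did not pass the test, and for 2 that rose and carry E2F letters. Each reads 5′ to 3′ on the strand of its gene, with the matched letters in capitals. They lie in GRCm38.p6 at chr1:180568791-180568890 on the plus strand for Parp1, chr1:72307176-72307275 on the plus strand for Xrcc5, chr1:38129817-38129916 on the minus strand for Rev1, chr5:150522407-150522506 on the plus strand for Brca2 and chr5:110839785-110839884 on the plus strand for Chek2.
Parp1: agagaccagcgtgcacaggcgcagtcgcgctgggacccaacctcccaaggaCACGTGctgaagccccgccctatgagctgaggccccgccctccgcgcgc
Xrcc5: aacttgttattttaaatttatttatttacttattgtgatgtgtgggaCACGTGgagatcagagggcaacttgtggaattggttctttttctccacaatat
Rev1: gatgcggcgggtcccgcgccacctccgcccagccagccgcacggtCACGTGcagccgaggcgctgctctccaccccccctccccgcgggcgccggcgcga
Brca2: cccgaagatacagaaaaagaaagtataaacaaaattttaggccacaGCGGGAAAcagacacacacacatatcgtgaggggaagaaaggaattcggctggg
Chek2: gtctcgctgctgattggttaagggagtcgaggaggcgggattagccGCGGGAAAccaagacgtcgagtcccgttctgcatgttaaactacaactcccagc
The E-box of Parp1 begins 49 bases before the start, that of Xrcc5 198 and that of Rev1 205. The E2F letters begin 168 bases before the start of Brca2 and 152 before that of Chek2, both on the opposite strand.

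Among the homologous recombination genes the resection nuclease Exo1 (mm9 chromosome 1, 177810909 to 177841527, plus strand) changed most. Its level was 103, 71.0, 120, 65.3 and 118 CPM on and 15.6, 20.1, 79.0, 39.5 and 8.79 CPM off. The on level was the higher one in each line, but the off level of G9488 exceeded the on levels of G9351 and G9529. The fitted log2 change was 1.88 (SE 0.48; adjusted p = 0.0261), or 3.69-fold. Without G9577 the log2 change of Exo1 was 1.45 (SE 0.36). Rad54l, a translocase that drives strand exchange, had 59.6, 37.6, 44.1, 41.7 and 67.7 CPM on and 8.24, 9.37, 37.5, 38.0 and 14 CPM off. With MYCN off it was low in G4314, G9351 and G9577 and near its on level in G9488 and G9529, and it rose 2.81-fold (log2 change 1.49, SE 0.46; adjusted p = 0.0436, and 0.0771 without G9577). It shares 5.04% of its exon bases with Lrrc41 on the opposite strand, and reads were counted without strand.

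The helicase gene Blm, whose product dissolves recombination intermediates, rose 2.61-fold (log2 change 1.38, SE 0.34; adjusted p = 0.0233). Its levels were 75.6, 58.7, 98.2, 43.2 and 90.5 CPM on and 16.5, 19.2, 59.9, 39.4 and 18.8 CPM off. Palb2, the partner that brings BRCA2 to breaks, rose 1.90-fold (adjusted p = 0.0367) with 16.3 to 23.0 CPM on and 7.25 to 18.6 CPM off. Brca2, which acts in strand exchange, had 61.3, 83.7, 109, 92.9 and 80.8 CPM on and 32.6, 44.0, 106, 60.4 and 40.3 CPM off. G9488 held nearly the same level in both conditions, and the fitted rise was 1.62-fold (log2 change 0.70, SE 0.17; adjusted p = 0.0221). Xrcc2, which supports strand exchange, rose 1.57-fold (adjusted p = 0.0435), from 9.51 to 19.8 CPM off to 15.2 to 34.6 CPM on. Its call was lost with RLE scaling (adjusted p = 0.0505) and with no filter on low counts (adjusted p = 0.0556). It was also lost with each line left out in turn (adjusted p = 0.0584 to 0.139).

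The other three recombination genes moved in the same direction in most lines and did not pass the adjusted threshold. Brca1, which licenses resection, had 96.8, 86.5, 102, 59.7 and 154 CPM on and 26.0, 54.9, 90.0, 60.5 and 27.2 CPM off. Its log2 change was 1.02 (SE 0.40; adjusted p = 0.0857), or 0.67 without G9577, with 2.49 in G9577 and -0.02 in G9529. Rad51ap1, a cofactor of strand exchange, had a log2 change of 1.28 (adjusted p = 0.0623), or 0.88 without G9577. Bard1, the partner of BRCA1, had one of 0.93 (adjusted p = 0.159; 95% interval -0.16 to 2.03; 0.50 without G9577). DESeq2 called Brca1 (adjusted p = 0.0284) and Rad51ap1 (adjusted p = 0.00992). The median over the 9 genes was 1.89, 1.19, 0.18, 0.16 and 2.26 by line. Of these genes 4 were called without G9577, 3 without G9529 and none without G4314 or G9351.

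In the Fanconi anaemia pathway, which unhooks crosslinks between DNA strands, the 2 genes of the ID complex rose. Fancd2 (mm9 chromosome 6, 113481676 to 113546279, plus strand) had 56.3, 45.4, 94.5, 43.4 and 118 CPM on and 13.9, 9.75, 64.2, 29.8 and 12.9 CPM off. In each line the on level was the higher one, and the rise was 3.22-fold (log2 change 1.69, SE 0.42; adjusted p = 0.0231). Without G9577 the log2 change of Fancd2 was 1.32 (SE 0.32). Its partner Fanci had 39.3, 34.0, 47.1, 22.2 and 60.5 CPM on and 8.51, 10.7, 35.6, 21.1 and 10.9 CPM off. G9529 differed little between conditions, and the fitted log2 change was 1.36 (SE 0.40; adjusted p = 0.0383, and 0.0576 without G9577). Fanci shares 8.62% of its exon bases with Polg on the opposite strand.

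The 3 genes of the Fanconi core complex did not pass the test. Fanca had 53.7, 35.8, 58.4, 48.3 and 88.0 CPM on and 13.8, 20.1, 67.8, 60.5 and 6.57 CPM off. It was higher with MYCN on in G4314, G9351 and G9577 and lower in G9488 and G9529, so the 95% interval of its log2 change of 1.10 ran from -0.31 to 2.51 (adjusted p = 0.192), and the change was 0.54 without G9577. It shares 17.1% of its exon bases with Zfp276. Fancb showed a log2 change of 0.89 (adjusted p = 0.132), or 0.49 without G9577. Fancc stayed between 14.2 and 19.9 CPM in all 10 libraries, with a log2 change of 0.10 (95% interval -0.30 to 0.50). Neither Fanconi call held without G4314 or without G9351.

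Cell cycle genes were followed in the same libraries. A reference list of 28 S phase and mitosis genes summed to 2024, 1877, 5715, 5473 and 2162 CPM off, and to 4974 to 9756 CPM on. Its median log2 change by line was 2.29, 1.6, 0.24, -0.05 and 2.87, with 10 of 28 genes higher, 0 lower and a fitted median of 1.36, against 15.3% of all genes called higher. Among its called genes, the spindle checkpoint kinase Bub1b had a log2 change of 2.03 (SE 0.49), the helicase subunit Mcm7 one of 0.88 (SE 0.16) and the licensing factor Cdt1 one of 0.81 (SE 0.18). The median of the list was highest in G4314, G9351 and G9577, as for the recombination and Fanconi genes, and its part in their result was not tested.

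**Figure D2:**
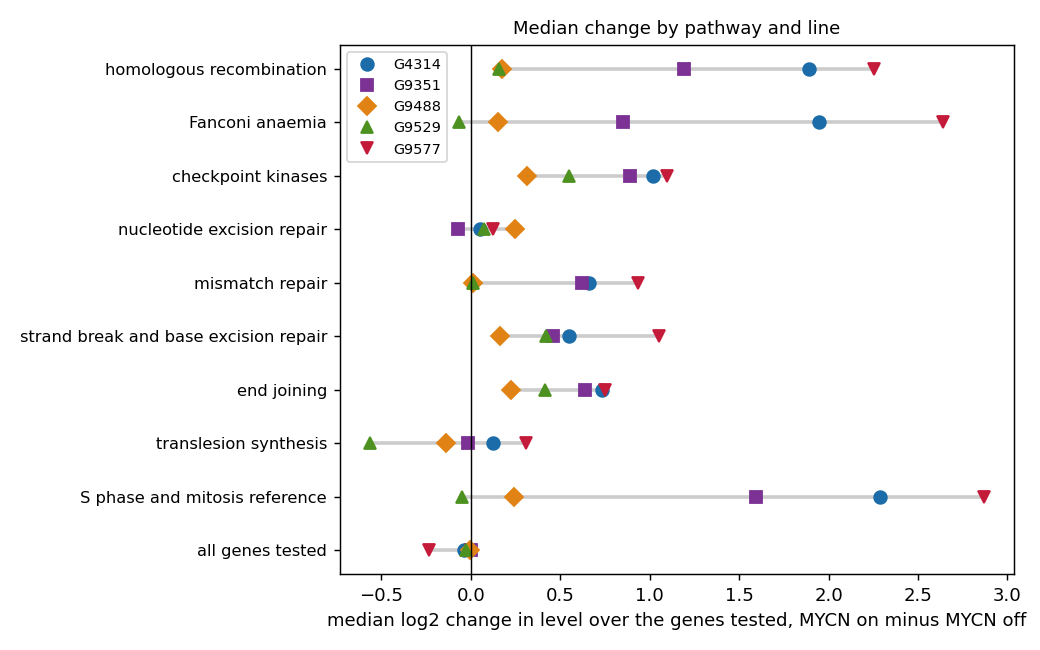
Median log2 change with MYCN on against off (horizontal axis) over the tested genes of each pathway, of the S phase and mitosis reference and of all genes tested (rows), 1 symbol per line. Homologous recombination, Fanconi and reference genes have medians of at least 0.85 in G4314, G9351 and G9577 and of at most 0.24 in G9488 and G9529, and nucleotide excision repair lies near 0 in each line.

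Of the checkpoint kinases, 4 of 5 rose and Wee1 did not pass the test. Atr (mm9 chromosome 9, 95758016 to 95852063, plus strand), which senses stalled forks, had 27.6, 37.8, 96.4, 43.8 and 98.9 CPM on and 15.2, 20.3, 54.1, 30.3 and 32.6 CPM off. The change was at least 0.53 on the log2 scale in each line although the lines differed in level, and the fitted value was 0.94 (SE 0.18; adjusted p = 0.0101). Atr shares 2.32% of its exon bases with 1700065D16Rik, which had 7 counts in all libraries together. Atm (mm9 chromosome 9, 53245227 to 53344776, minus strand), which senses breaks, had 117, 138, 193, 120 and 153 CPM on and 52.6, 78.5, 155, 76.6 and 71.4 CPM off. The off level of G9488 stood above the other off levels and above 4 of the 5 on levels. The log2 change was 0.80 (SE 0.15; adjusted p = 0.00998).

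Chek1, the kinase downstream of ATR, was nearly level across lines with MYCN on and varied with MYCN off. It had 102, 83.5, 94.8, 99.2 and 82.8 CPM on and 50.9, 38.0, 86.9, 65.6 and 24.5 CPM off (log2 change 0.92, SE 0.23; adjusted p = 0.0245). Chek2, the kinase downstream of ATM, had 29.9, 25.2, 28.4, 16.7 and 25.6 CPM on and 5.80, 4.87, 19.1, 11.4 and 16.8 CPM off. Its largest line changes were 2.33 in G4314 and 2.32 in G9351, and in contrast to most recombination genes G9577 was not among the most changed lines, at 0.60. The fitted log2 change was 1.27 (SE 0.37; adjusted p = 0.0381). Wee1, which holds cells before mitosis, showed 53.9 to 103 CPM on and 35.2 to 74.9 CPM off (log2 change 0.43, 95% interval -0.02 to 0.88; adjusted p = 0.126). Without G4314 or without G9351 only Atm and Atr of the 5 kinases were called.

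**Figure D3:**
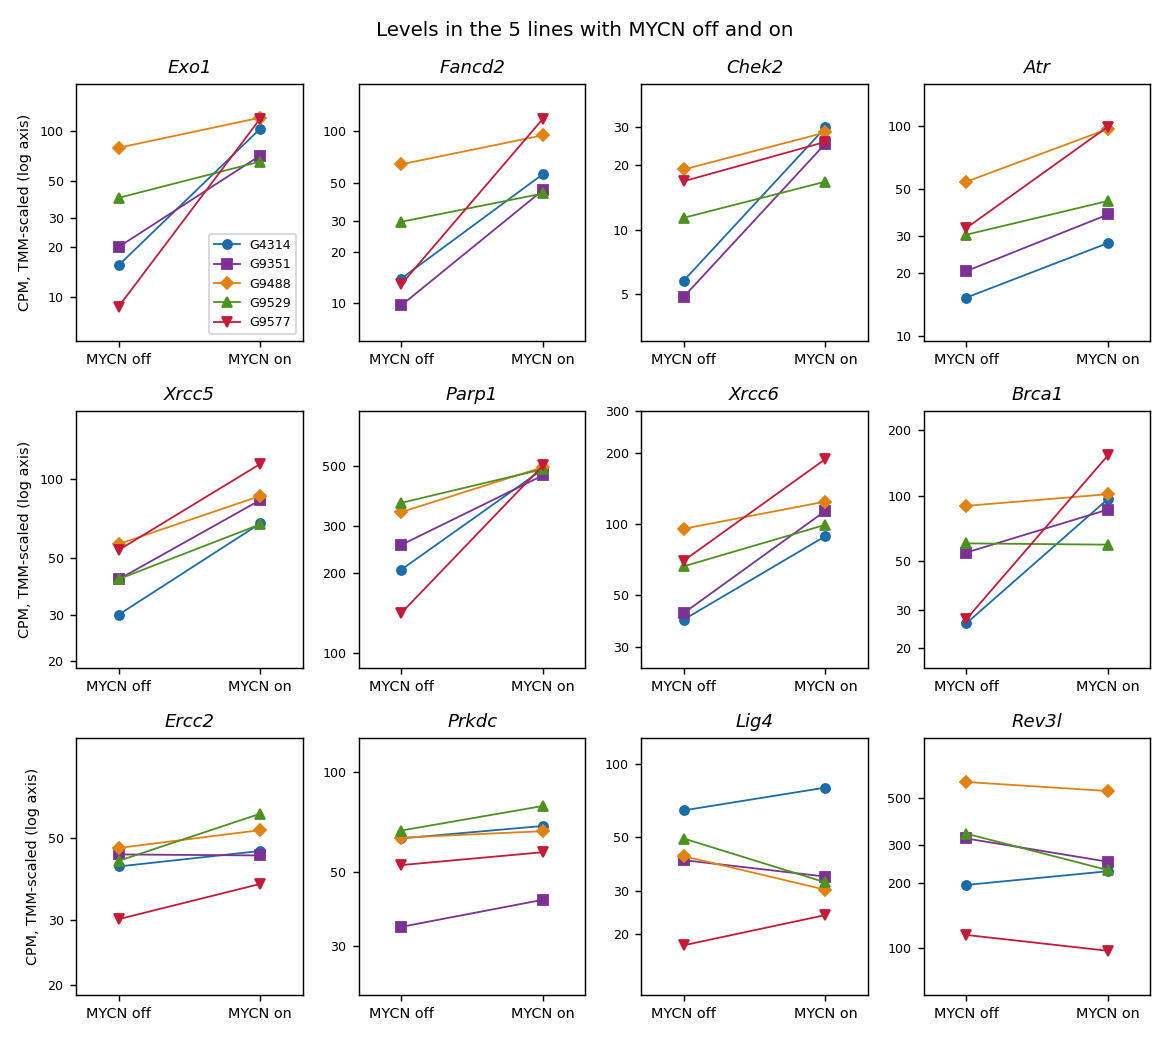
Level in CPM (vertical axes, logarithmic and different for each panel) with MYCN off and on for 12 of the genes, 1 line of symbols per cell line. Exo1, Fancd2, Parp1 and Brca1 start from spread-out off levels and climb least in G9488 and G9529, Atr and Xrcc5 climb in each line, and Ercc2, Prkdc, Lig4 and Rev3l change little or in both directions.

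End joining, which ligates breaks without a template, was split between its subunits. The Ku genes Xrcc5 (Ku80) and Xrcc6 (Ku70), whose products form the ring that binds broken ends, rose in all 5 lines. Xrcc5 (mm9 chromosome 1, 72353995 to 72441527, plus strand) had 67.6, 83.2, 86.3, 67.1 and 115 CPM on and 30.2, 41.2, 56.3, 41.3 and 53.4 CPM off. Every on library lay above every off library, and the log2 change of 0.92 (SE 0.14; adjusted p = 0.00532) had the smallest p of the set. Xrcc6 had 88.9, 114, 125, 99.3 and 189 CPM on and 39.4, 42.0, 95.5, 66.2 and 70.0 CPM off. Only the off level of G9488 overlapped the on levels, and the rise was 2-fold (SE of the log2 change 0.19; adjusted p = 0.0109).

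The catalytic subunit that Ku recruits and the ligase that seals the ends did not pass the test. Prkdc, the DNA-dependent protein kinase, had 68.7, 41.2, 66.3, 78.9 and 57.3 CPM on and 63.0, 34.2, 63.4, 66.6 and 52.4 CPM off. In each line the on level was slightly the higher one, and the log2 change of 0.17 had a 95% interval from -0.10 to 0.44 (adjusted p = 0.292). Lig4 had 79.8, 34.3, 30.3, 32.5 and 23.9 CPM on and 64.3, 40.1, 41.7, 49.2 and 17.9 CPM off. The lines went in both directions, and the log2 change was -0.11 (95% interval -0.57 to 0.34). Both Ku calls were kept without each line in turn, with adjusted p up to 0.0476 for Xrcc6.

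Parp1, the poly(ADP-ribose) polymerase that marks strand breaks, was the most abundant member per length. It had 487, 462, 495, 487 and 503 CPM on and 205, 254, 337, 365 and 141 CPM off. The on libraries lay within 1.09-fold of each other while the off libraries spread over 2.58-fold (1.78-fold without G9577), and no on library overlapped an off library. The log2 change was 0.98 (SE 0.22; adjusted p = 0.0162), but the adjusted p was 0.0695 without G4314 and 0.056 without G9351. Xrcc1, the scaffold of single-strand break repair, also had every on library (99.4 to 138 CPM) above every off library (66.6 to 90.9 CPM). Its log2 change of 0.47 (SE 0.16) did not pass (adjusted p = 0.0575), although limma-voom called it (adjusted p = 0.049). Parp2, a polymerase related to Parp1, had a log2 change of 0.31 (95% interval -0.002 to 0.62; adjusted p = 0.113). Parp1, Xrcc1 and Xrcc5 were the 3 of 38 genes with no overlap between on and off libraries, a share near the 6.35% of all genes.

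Of the mismatch repair genes, Msh6 rose and Msh3 did not pass. MSH6 serves to recognise single mismatches and MSH3 longer loops. Msh6 had 228, 187, 228, 218 and 200 CPM on and 127, 105, 209, 174 and 91.8 CPM off. G9488 off was the only off library within the range of the on libraries, and the log2 change was 0.65 (SE 0.17; adjusted p = 0.026, and up to 0.0961 without G4314 or G9351). Msh3 had 43.1 to 65.6 CPM on and 34.5 to 53.2 CPM off (log2 change 0.25, 95% interval -0.19 to 0.68).

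Nucleotide excision repair, which cuts out bulky adducts and platinum crosslinks within a strand, showed no call. Of its 7 genes 0 were called in either direction by edgeR's quasi-likelihood test, 0 were past an unadjusted p of 0.05, and 0 were called higher by DESeq2 or limma-voom. The median log2 change was 0.04, and by line it was 0.05, -0.07, 0.25, 0.08 and 0.13. The damage sensor gene Xpc had 27.6, 35.6, 34.3, 37.4 and 49.7 CPM on and 28.7, 34.6, 26.5, 25.8 and 79.8 CPM off. It was lower with MYCN on in G9577 and higher in G9488 and G9529, with a fitted value of 0.04 (95% interval -0.43 to 0.51), or 0.23 without G9577. Xpa, which verifies the damage, was among the least counted members, at 7.20 to 11.1 CPM on and 6.96 to 20.9 CPM off (log2 change -0.41, 95% interval -1.16 to 0.34; -0.15 without G9577).

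The helicases of the repair and transcription factor TFIIH differed little between conditions. Ercc2 showed a log2 change of 0.21 (95% interval -0.10 to 0.51) and Ercc3 one of 0.11 (95% interval -0.19 to 0.41). The nuclease subunits were Ercc1 at 0.10 (95% interval -0.28 to 0.49) and Ercc4 at -0.22 (95% interval -0.59 to 0.16), which cut on the 5′ side of the lesion, and Ercc5 at -0.22 (95% interval -0.63 to 0.19), which cuts on the 3′ side. A doubling lies outside each of these 5 intervals. Ercc2 shares 16.5% of its exon bases with Klc3 and Ercc1 7.13% with Cd3eap, so their levels are less certain.

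The translesion polymerases, which copy past unrepaired lesions, also showed 0 calls. Rev3l, the catalytic subunit of polymerase zeta, had 228, 252, 536, 231 and 97.5 CPM on and 197, 323, 590, 340 and 115 CPM off. G9488 was highest and G9577 lowest in both conditions, and the log2 change was -0.22 (95% interval -0.53 to 0.10; adjusted p = 0.241). Rev1, a scaffold for the other polymerases, had a log2 change of 0.02 (95% interval -0.31 to 0.34) and shares 29.1% of its exon bases with Eif5b. Polh, which bypasses ultraviolet lesions, had 0.11 (95% interval -0.52 to 0.74), with 1.21 in G9577 and -0.67 in G9529, and -0.15 without G9577. At an unadjusted p of 0.05 the 3 genes gave 0 calls, and DESeq2 and limma-voom called 0 of them higher.

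Mgmt, which removes alkyl groups from guanine and is known for resistance to temozolomide, was counted in few libraries and did not pass the filter. It had 9, 2, 0, 0 and 48 counts with MYCN on and 23, 0, 0, 0 and 78 counts with MYCN off. Only G4314 and G9577 held more than 2 counts in either condition, and in both the on count was the lower one. With no filter its log2 change was -0.68 (adjusted p = 0.575).

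The lines were closer to each other in level with MYCN on than off. The ratio of the highest to the lowest line was smaller with MYCN on for 31 of the 38 genes, against 57.1% of the 12071 genes counted in all libraries. Without G9577 it was smaller for 32 of 38, against 59.6%. Without G9488 it was smaller for 27 of 38, against 6661 of the 12071 genes, the lowest count with a line left out. Exo1 spanned 8.99-fold among lines off and 1.84-fold on, Fanca 10.3-fold off and 2.46-fold on, and Chek1 3.55-fold off and 1.23-fold on. Without G9577 the off spans were narrower, at 5.07-fold for Exo1, 4.92-fold for Fanca and 2.29-fold for Chek1, and the on spans were 1.84-fold, 1.63-fold and 1.22-fold. By contrast Polh spanned 1.47-fold off and 2.55-fold on (1.44-fold and 1.56-fold without G9577), and Atr 3.55-fold off and 3.58-fold on. For each homologous recombination gene other than Xrcc2, the off levels of G9488 and G9529 both lay above those of the other lines.

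The level of 9 of 38 genes differed among the 5 lines in the F test of the line terms (edgeR, Benjamini-Hochberg adjustment), against 45.6% of all genes. The residual of this fit holds any uneven response of the lines, so a gene whose lines differ mainly with MYCN off can go uncalled. Fanca and Exo1, with the off spans given above, had adjusted p of 0.53 and 0.33 in this test. The smallest adjusted p were 0.0011 for Rev3l and 0.00655 for Atr. Ercc4 followed at 0.0137, Lig4 at 0.0184 and Prkdc at 0.0245, and the other four were Atm, Brca2, Rev1 and Ercc3. Of the 9 genes, Rev3l, Ercc4, Lig4, Prkdc, Rev1 and Ercc3 are among the 22 of 38 that did not pass the test for MYCN. The count was 15 with DESeq2 and 4 without G4314 or without G9488, and 5 without G9351. The shares of all genes called in these other fits are not given here, so these counts cannot be set against a background.

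**Figure D4:**
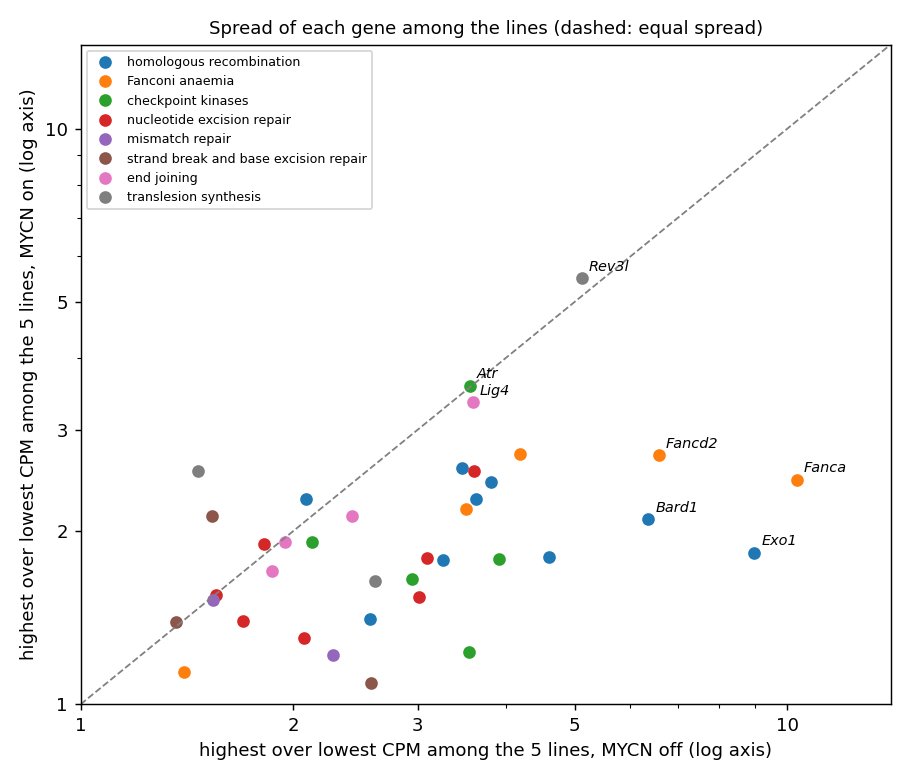
Ratio of the highest to the lowest level in CPM among the 5 lines, with MYCN off (horizontal, logarithmic) against MYCN on (vertical, logarithmic), 1 point per gene coloured by pathway. The dashed line marks equal spread: 31 of 38 points lie below it, with Fanca and Exo1 farthest to the right and Rev3l high on both axes.

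Levels were compared between genes as RPKM, the CPM divided by the exon length in kilobases. Parp1 stood highest at 127 ± 4.06 RPKM on and 68.1 ± 24.1 RPKM off (SD, n = 5 lines). Xrcc6 (58.2 ± 18.5 RPKM on), Xrcc1 (52.4 ± 7.17 RPKM on) and Msh6 (49.7 ± 4.25 RPKM on) followed. Differences in RPKM between genes were not tested. At the lower end of the tested genes with MYCN on stood Fancc at 4.21 ± 0.23 RPKM, Ercc4 at 4.38 ± 1.46 RPKM and Fancb at 4.92 ± 1.65 RPKM, next to Prkdc at 4.93 ± 1.12 RPKM. Among end-joining genes the Ku subunits were thus higher per length than Prkdc and Lig4 (9.84 ± 5.51 RPKM on).

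Other genes of the same pathways were counted from lists chosen with earlier results known. Their counts stand against 15.3% of all genes called higher and 15.6% called lower. In homologous recombination 7 of 25 tested genes rose and 1 fell. The rises included Rad50 (log2 change 0.73, SE 0.16) and Mre11a (0.77, SE 0.21), subunits of the break-sensing MRN complex, and Rpa3 (0.72, SE 0.17), which coats single strands. The 1 fall was Xrcc3 (log2 change -0.53, SE 0.17; adjusted p = 0.0465), named after its value was seen. In the checkpoint list 8 of 18 rose and 0 fell, among them the clamp subunits Hus1 (log2 change 0.99, SE 0.16) and Rad1 (0.61, SE 0.15) and the fork protection factor Tipin (0.86, SE 0.22). In the Fanconi list 1 of 13 rose, Usp1 (log2 change 0.83, SE 0.26), which removes ubiquitin from FANCD2, a share below that of all genes.

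In the wider nucleotide excision list 5 of 17 genes rose and 0 fell, and the difference from the 7 members was not tested. The rises included the TFIIH subunits Gtf2h4 (log2 change 0.85, SE 0.16) and Gtf2h1 (0.67, SE 0.11) and the XPC partner Rad23b (0.69, SE 0.13). In base excision repair 3 of 19 rose: the abasic-site endonuclease Apex1 (log2 change 1.40, SE 0.17), the ligase Lig3 (0.93, SE 0.17) and the uracil glycosylase Ung (1.11, SE 0.32). In end joining 1 of 6 rose, the polymerase of the microhomology route Polq (log2 change 1.42, SE 0.38), in translesion synthesis 1 of 7, the ubiquitin ligase Rad18 (0.92, SE 0.28), and in direct reversal 0 of 2. The shares in base excision repair, end joining and translesion synthesis lay near the 15.3% of all genes. No gene of these lists other than Xrcc3 fell, and the medians ran from 0.10 in end joining to 0.60 in the checkpoint list.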

How the data were processed

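Values are raw counts per gene that the authors deposited, 1 file per library. Per the file headers, featureCounts 1.6.0 made them from mm9 gene models, without strand, and its command sets nothing for multi-mapping reads. The submitters' processing notes also name bcl2fastq 1.8.4 and the aligner STAR 2.5.2a. Genes with low counts were removed (filterByExpr, minimum count 10) and counts were scaled by TMM. Genes were tested by quasi-likelihood F tests in edgeR 4.0.16 (R 4.3.3), two-sided, with the line as a block, 4 residual degrees of freedom, Benjamini-Hochberg adjustment over 12835 genes and a threshold of 0.05. Log2 changes are MYCN on minus off, their SE is the change over the square root of F, and changes of single lines use a prior count of 2. The line pairs libraries by the labels: deviations of its on and off library correlated with r of 0.721 to 0.873, against at most 0.273 between lines. The test was checked on simulated data. Alternatives were DESeq2 1.42.0, limma-voom (limma 3.58.1), RLE, library size, other filters, no block and each line left out; the spread among lines without each line was added after seeing the data. All 39 members could be named; from each other list, up to 3 genes with the smallest p past the threshold. Members and lists were chosen with earlier results of these data known. Some genes of the wider lists are not reported here.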

Additional observations from a re-analysis of the deposited data

Results flagged for a closer look

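Among 76 groups of 5 libraries (38 genes with MYCN on or off), 4 held a library far from the others by Dixon's criterion, which chance alone meets in about 1 in 20 groups. With MYCN off, Atm stood at 155 CPM in G9488, against 52.6 to 78.5 CPM in the other lines. With MYCN off, Xpc stood at 79.8 CPM in G9577, against 25.8 to 34.6 CPM. With MYCN on, Ercc3 stood at 82.4 CPM in G9577, against 43.3 to 52.1 CPM. With MYCN on, Lig4 stood at 79.8 CPM in G4314, against 23.9 to 34.3 CPM.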

How the results depend on the processing

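The lines pair the libraries, and without the replicate block the count of members called higher went from 16 to 0 and that of all genes from 3973 to 274. Leaving out each line in turn gave 4 to 15 members called higher and 1729 to 4493 genes called in all. It gave 4 to 8 members that differed among lines, and DESeq2 gave 15 of this kind. The shares of all genes that differed among lines in these fits are not given here. The count of members called lower was 0 in every fit run. The 16 called genes kept their call in 143 of 192 alternative fits and their direction in all 192. Of 264 alternative fits of the other 22 genes, 3 made a call and 15 turned the direction, none of these with a call. The turned log2 changes were small: Xpc gave -0.0812 without the replicate block, -0.00994 with limma-voom, -0.0130 for genes of at least 1 CPM in all libraries and -0.10 to 0.23 with a line left out. Rev1 gave -0.0226 without the block, -0.0152 with DESeq2, -0.00206 with limma-voom, -0.0137 with RLE scaling, -0.0362 for genes of at least 1 CPM, and -0.0436 to 0.156 with a line left out. Lig4 ran from -0.24 to 0.0101 and Polh from -0.15 to 0.29 with a line left out. The cause of these shifts was not tested. Changes are relative to library totals.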
